A study of Homo sapiens with 2 samples.

Results

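TERT encodes the catalytic subunit of telomerase, and its promoter, gene body and 10 kb of upstream DNA were followed here in the human neuroblastoma line SH-SY5Y. Methylation was measured by targeted capture and bisulfite sequencing after exposure to Mdivi-1, a mitochondrial fission blocker of low molecular weight, or to its solvent DMSO. Each group held 1 library, with the dose and the duration of exposure not given in the sources used here. The deposited table annotates 687 CpGs to TERT or places them in the 10 kb upstream. Of these, 597 had at least 10 reads in both libraries, out of 2523690 such CpGs in the whole table. They comprised 52 promoter CpGs, 509 gene body CpGs and 36 intergenic CpGs further upstream. The other 90 CpGs were left out for coverage, 14 of them in the promoter, 68 in the gene body and 8 upstream. At that limit, 15 CpGs whose lower coverage was 10 reads averaged 61.1% in the Mdivi-1 and 65.1% in the DMSO library, and the 28 CpGs just outside it, with 9 reads, averaged 54.6% in the Mdivi-1 and 56.5% in the DMSO library.

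TERT was chosen because an exonic window of it had already been seen to differ between these libraries. Every difference below is therefore a description, given as Mdivi-1 minus DMSO in percentage points with no test, and with 1 library per group none has a replicate check. Errors and 95% intervals cover the counting of reads only, and reads may share a PCR origin. The errors of mean differences treat CpGs as independent, although neighbouring CpGs can lie on the same reads. Mean coverage of the TERT CpGs was 45.1 reads in the Mdivi-1 and 36.1 reads in the DMSO library, beside 49.1 reads in the Mdivi-1 and 39.7 reads in the DMSO library over all CpGs of the table.

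Telomerase adds telomeric repeats to chromosome ends by copying the template held in its RNA subunit, TERC, with TERT as the reverse transcriptase. Most somatic cells silence TERT, whereas many cancers, neuroblastoma among them, transcribe it again. The TERT promoter lies in a CpG island, and in many telomerase-positive cancer cells the DNA upstream of the start is methylated while the stretch next to the start is not. Bisulfite sequencing does not separate methylcytosine from hydroxymethylcytosine, and TERT transcription was not measured in the table used here.

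The gene runs on the minus strand of chromosome 5, and the table's own distances place its start at position 1295183 of hg19. The kept CpGs lay between positions 1252303 and 1301191. None lay between 742 bp downstream and 326 bp upstream of the start, and no CpG of the table at any coverage lay between 449 bp downstream and 156 bp upstream. The stretch without kept CpGs includes the core promoter. It is shown to make plain how CpG-dense the poorly read stretch is, as the 250 bases that precede the start in RefSeq, chr5:1295069-1295318 of GRCh38.p14, minus strand, written 5′ to 3′ with CG dinucleotides in capitals.

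TERT: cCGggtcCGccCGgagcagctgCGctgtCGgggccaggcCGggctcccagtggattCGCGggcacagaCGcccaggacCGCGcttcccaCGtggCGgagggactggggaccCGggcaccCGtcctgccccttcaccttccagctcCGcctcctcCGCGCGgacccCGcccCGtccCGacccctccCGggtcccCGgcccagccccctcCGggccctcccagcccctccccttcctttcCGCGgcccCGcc

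It holds 28 CG dinucleotides. Only 4 of them have an entry in the table, matched by distance from the start, and all 4 were under 10 reads in the DMSO library. A search of both strands for GGGCGG, the GC box bound by SP1, gave 2 matches, at 86 and 244 bp upstream of the start. This motif occurs in 42.6% of 35116 promoters of the same length. A search for CACGTG, the E-box bound by MYC and MAX, gave 1 match at 163 bp upstream, and 6.34% of promoters hold it. Neither motif overlaps the other there.

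Methylation of TERT was intermediate almost throughout. The mean level over its CpGs was 57.5% in the Mdivi-1 and 58.2% in the DMSO library, with an SD over CpGs of 20.4 points in the Mdivi-1 and 20.7 points in the DMSO library. CpGs between 20% and 80% made up 79.6% of TERT in the Mdivi-1 and 78.1% in the DMSO library. Over all CpGs of the table the same share was 19.8% in the Mdivi-1 and 20.5% in the DMSO library. Within the narrower range of 40% to 60%, TERT had 49.9% of its CpGs in the Mdivi-1 and 49.2% in the DMSO library, whereas all CpGs had 7.05% in each. TERT CpGs above 80% made up 17.6% of the Mdivi-1 and 19.8% of the DMSO library, and CpGs under 20% made up 2.85% of the Mdivi-1 and 2.18% of the DMSO library. Intermediate CpGs were thus the rule in TERT and the exception over the table.

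This share did not fall with greater depth. With at least 20 reads in both libraries, 412 TERT CpGs remained, of which 81.6% in the Mdivi-1 and 81.6% in the DMSO library were intermediate, against 19.9% of all such CpGs of the table in the Mdivi-1 and 20.5% in the DMSO library. Among 7070 genes with at least 100 CpGs in promoter and body, the median gene had 11.3% intermediate CpGs in the Mdivi-1 and 12.005% in the DMSO library. The 561 promoter and body CpGs of TERT had 80.7% in the Mdivi-1 and 79.3% in the DMSO library. Only 25 genes had a higher share in the Mdivi-1 and 28 genes in the DMSO library. TERT thus lay at the 99.6 percentile of genes in both libraries. Large differences need levels away from 0 and 100%, so this rank is not independent of the choice of TERT by a difference.

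**Figure D1:**
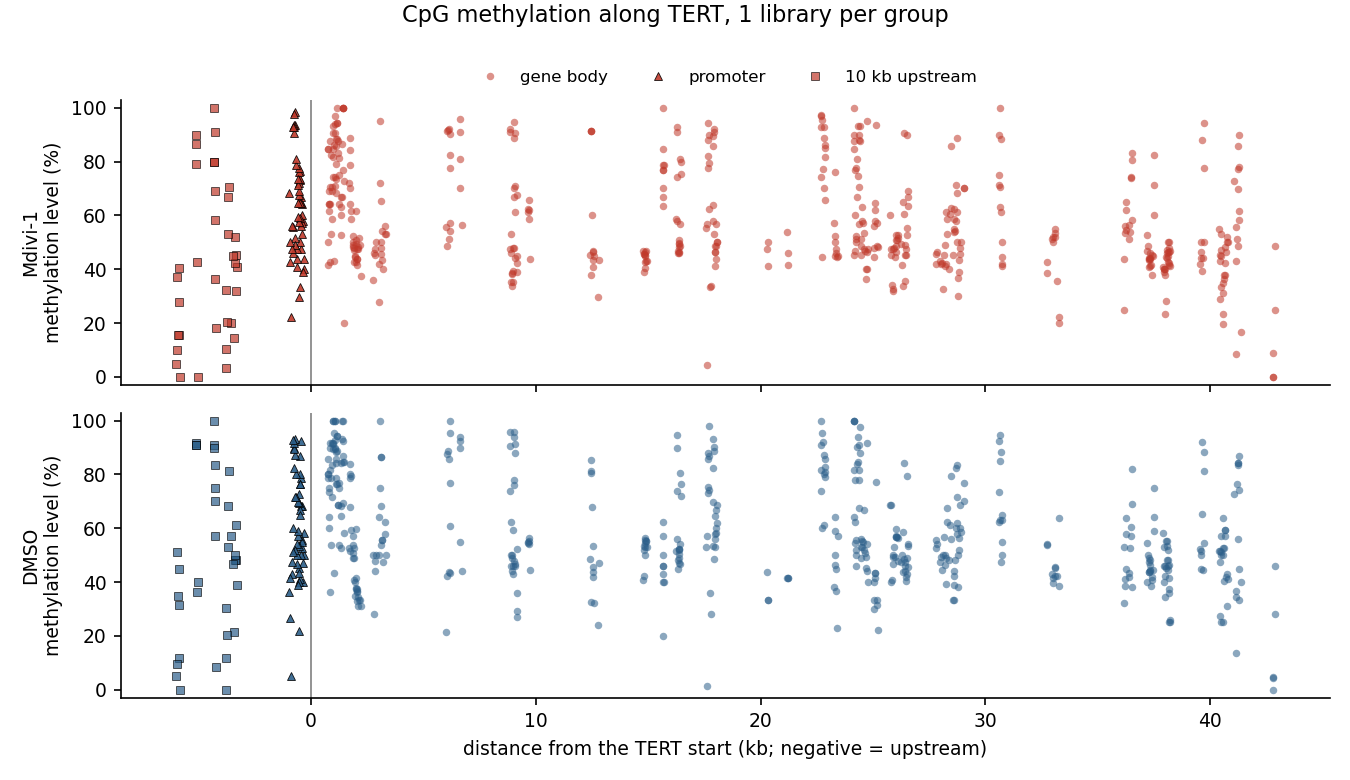
Methylation level (%) of each kept CpG against its distance from the TERT start (kb, negative upstream). The Mdivi-1 library is in the upper and the DMSO library in the lower panel. Circles mark gene body, triangles promoter and squares upstream CpGs. Most points lie between 20% and 80% along the whole gene in both libraries (79.6% of CpGs in the Mdivi-1, 78.1% in the DMSO library).

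Neighbouring genes within 100 kb were described for their levels alone. CLPTM1L, which encodes a membrane protein and lies upstream of TERT, was nearly fully methylated, at 85.7% in the Mdivi-1 and 85.3% in the DMSO library over 396 CpGs, with 3.79% of them intermediate in the Mdivi-1 and 5.81% in the DMSO library. SLC6A18, a member of the SLC6 transporter family on the other side, averaged 23.7% in the Mdivi-1 and 22.1% in the DMSO library over 282 CpGs, with 27.7% intermediate in the Mdivi-1 and 28.7% in the DMSO library. SLC6A19, a neutral amino acid transporter, averaged 31.9% in the Mdivi-1 and 30.5% in the DMSO library over 323 CpGs. Intermediate levels were thus much more frequent in TERT than in the genes on either side. Among the remaining neighbours, the noncoding LINC01511 had intermediate levels at 42.2% of its CpGs in the Mdivi-1 and 34.9% in the DMSO library. SLC6A3, the dopamine transporter, had 38.6% in the Mdivi-1 and 36.8% in the DMSO library. These shares rest on 57 CpGs at positions 1393833 to 1400011, which may not span the whole gene. CTD-3080P12.3 had 35.9% in each library.

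The measured part of the promoter was methylated more than most promoters. Its 52 kept CpGs, at positions 1295509 to 1296156, lay 326 to 973 bp upstream of the start and left out the core promoter. They averaged 62.3% in the Mdivi-1 and 60.5% in the DMSO library, with 32.2 mean reads in each. The median of 23526 measured promoters was 19.1% in the Mdivi-1 and 18.9% in the DMSO library. Against these, the measured part of TERT lay at the 82.9 percentile in the Mdivi-1 and the 82.4 percentile in the DMSO library. The core promoter of TERT has no part in this rank. The difference at the TERT promoter was 1.84 points with a counting error of 1.85 points, and 29 CpGs were higher and 22 lower in the Mdivi-1 library. It was 4.70 points over the 28 promoter CpGs covered by 20 or more reads in each library and 5.18 points over the 22 at 30 or more. Both are subsets of the 52 CpGs, so the change with depth is also a change of CpGs. Within both subsets, the 14 CpGs at 615 to 787 bp, each with 42 or more reads per library, differed by a mean of -0.08 points.

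Along the promoter the level followed a profile shared by both libraries. The 4 CpGs at 326 to 364 bp upstream averaged 45.1% in the Mdivi-1 and 48.8% in the DMSO library. The 26 CpGs at 404 to 589 bp averaged 62.3% in the Mdivi-1 and 60.9% in the DMSO library. The peak was at 615 to 787 bp, where 14 CpGs averaged 75.1% in the Mdivi-1 and 75.2% in the DMSO library. Beyond it, 8 CpGs at 806 to 973 bp averaged 48.6% in the Mdivi-1 and 39.0% in the DMSO library, a difference of 9.65 points with a counting error of 5.47 points. Methylation was thus lowest at both ends of the measured promoter.

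Some single CpGs stood apart from their neighbours in the same direction in both libraries, but not always by as much. The CpG 549 bp upstream was methylated in 29.7% of 37 Mdivi-1 reads and 21.9% of 32 DMSO reads. Its neighbour 6 bp away, at 543 bp, had 77.8% of 36 Mdivi-1 reads and 45.2% of 31 DMSO reads. The pair at 733 and 736 bp, with 51.8% and 48.9% in the Mdivi-1 and 71.7% and 51.8% in the DMSO library, sat among CpGs at 722 to 787 bp that otherwise had 90.5% to 98.3% in the Mdivi-1 and 82.5% to 93.1% in the DMSO library. Among the kept promoter CpGs the one at 894 bp was the lowest, with 22.2% of 18 Mdivi-1 reads and 5.26% of 19 DMSO reads.

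The longest run of consecutive promoter CpGs that were higher in the Mdivi-1 library, picked out after the values were seen, lay next to a stretch that was mostly lower. The 9 CpGs at 531 to 589 bp were all higher in the Mdivi-1 library, averaging 65.03% in the Mdivi-1 and 47.6% in the DMSO library, a difference of 17.4 points at 41.3 mean reads in the Mdivi-1 and 36.7 in the DMSO library. The widest was at 543 bp, 32.6 points with a 95% Newcombe interval of 9.32 to 51.8 points. Of the 17 CpGs at 404 to 525 bp, 12 were lower and 5 higher, averaging 60.8% in the Mdivi-1 and 68.0% in the DMSO library, a difference of -7.18 points at 18.1 mean reads in the Mdivi-1 and 17.6 in the DMSO library. These offset each other in the promoter mean.

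The 12 CpGs of the table nearest the start on the upstream side, at 156 to 314 bp, had 10 to 16 reads in the Mdivi-1 but only 1 to 9 reads in the DMSO library and were not compared. In the Mdivi-1 library they averaged 27.5% and ranged from 16.7% to 40%, with 37 of 133 reads methylated over all 12. In the DMSO library 6 of 40 reads were methylated. These reads repeat across neighbouring CpGs and are given as counts only. The Mdivi-1 level next to the start was thus below that of each promoter stretch farther out.

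**Figure D2:**
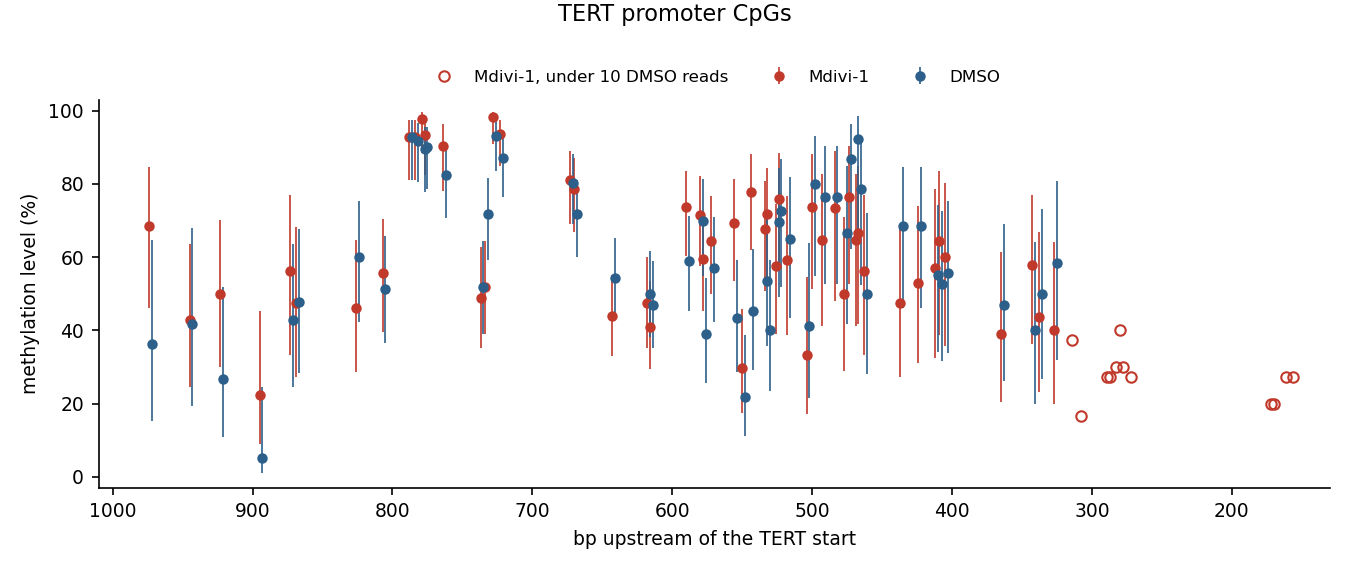
Methylation level (%) of promoter CpGs against bp upstream of the TERT start, with Mdivi-1 points drawn left of DMSO points, bars giving 95% Wilson intervals for counting error and open circles marking Mdivi-1 values at CpGs with under 10 DMSO reads. Levels peak at 615 to 787 bp in both libraries, and the 9 CpGs at 531 to 589 bp are higher in the Mdivi-1 library.

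In the gene body, 509 CpGs averaged 58.0% in the Mdivi-1 and 58.6% in the DMSO library, a difference of -0.58 points with a counting error of 0.530 points. The 351 intronic CpGs averaged 55.01% in the Mdivi-1 and 55.8% in the DMSO library. The 152 exonic CpGs averaged 66.6% in the Mdivi-1 and 66.5% in the DMSO library, a difference of 0.0447 points with an error of 1.02 points. Without the 9-CpG exonic window described below, an alternative chosen after seeing the data, the exonic difference was -1.99 points. Another 5 CpGs downstream of the gene averaged 16.5% in the Mdivi-1 and 16.6% in the DMSO library, the lowest of these classes. Exonic CpGs were thus more methylated than intronic ones on average in both libraries, but not in every exonic stretch. The 62 kept exonic CpGs nearest the start averaged 75.6% in the Mdivi-1 and 79.4% in the DMSO library. By contrast, 11 at 1280287 to 1280395 averaged 44.2% in the Mdivi-1 and 51.7% in the DMSO library. Another 9 at 1254511 to 1254614 averaged 34.7% in the Mdivi-1 and 51.2% in the DMSO library.

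CpG islands inside the gene were the most methylated by island class. Gene body CpGs in islands averaged 66.3% in the Mdivi-1 and 68.6% in the DMSO library, a difference of -2.27 points with an error of 0.975 points. Shores, the flanks of islands, averaged 54.5% in the Mdivi-1 and 53.3% in the DMSO library. The farther shelves averaged 53.5% in the Mdivi-1 and 54.1% in the DMSO library, and CpGs outside all of these averaged 56.1% in the Mdivi-1 and 58.2% in the DMSO library. The island that spans the start is 6695 bp long, and its 149 kept CpGs averaged 64.9% in the Mdivi-1 and 66.7% in the DMSO library. The highest island was a body island of 323 bp, 24.1 to 24.4 kb from the start, at 73.8% in the Mdivi-1 and 77.3% in the DMSO library over 22 CpGs.

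The region as a whole differed little between libraries. Over the 597 CpGs the difference was -0.70 points with a counting error of 0.497 points, with 277 CpGs higher, 305 lower and 15 equal in the Mdivi-1 library. All CpGs of the table differed by 0.460 points. Single TERT CpGs differed by a root mean square of 12.6 points, where counting alone gives 12.1 points. Over all CpGs at a mean level of 20% to 80% the same quantities were 12.4 and 12.1 points. Pearson's r between the libraries over TERT CpGs was 0.81, against 0.98 over all CpGs, which span a wider range of levels. CpGs on the same reads are not independent, and of 502 neighbouring pairs within 50 bp, 352 (70.1%) differed in the same direction.

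By a rule of size of at least 20 points, 27 of the 597 CpGs (4.52%) were higher in the Mdivi-1 library, where 1.53% of all CpGs of the table were, and 38 (6.37%) were lower, where 1.21% of all CpGs were. Intermediate CpGs vary most by counting, so the same shares were taken among CpGs at a mean level of 20% to 80%. There, 25 of 470 TERT CpGs (5.32%) were higher, beside 5.77% of all such CpGs, and 31 (6.60%) were lower, beside 4.8%. The gene was chosen on this contrast, and nothing is read from these counts. Just inside the threshold lay CpGs at 20.1 and -20 points, and just outside it CpGs at 19.6 and -19.9 points. Of the 52 promoter CpGs, 6 (11.5%) were higher and 2 (3.85%) lower, beside 1.098% and 0.918% of all promoter CpGs of the table. Of the 152 exonic CpGs, 11 (7.24%) were higher and 15 (9.87%) lower, beside 1.66% and 1.296% of all exonic CpGs. The exonic window for which TERT had been chosen held 7 of these 11. Of the 351 intronic CpGs, 10 (2.85%) were higher and 15 (4.27%) lower, beside 1.48% and 1.104% of all intronic CpGs. These shares by place are not matched for level. A noncoding exon held 1 lower CpG, and the upstream stretch held 5 lower and no higher CpG.

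**Figure D3:**
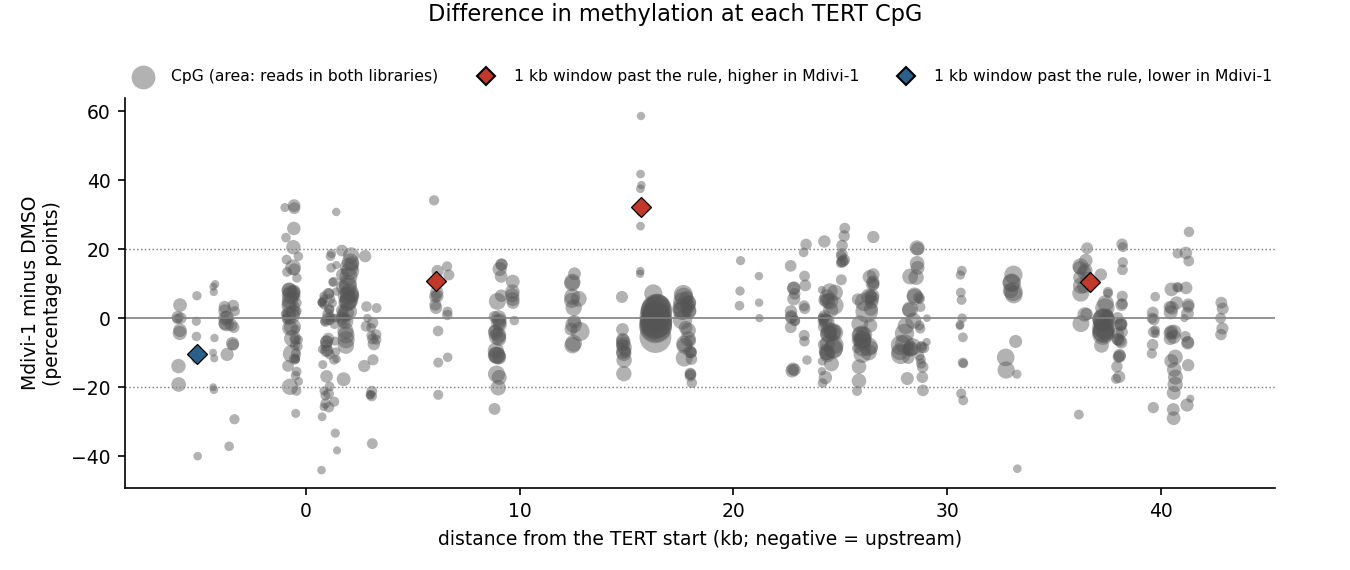
Difference in methylation (Mdivi-1 minus DMSO, percentage points) at each kept CpG against distance from the TERT start (kb, negative upstream), with point area giving reads in both libraries and diamonds marking the means of 1 kb windows that passed the rule of size. The 3 higher windows and the 1 lower window are few among points scattered around 0, and the widest mean difference is 32.3 points.

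The region was also read in windows of 1 kb on a fixed grid. A window passed when 5 or more CpGs were kept in it, their mean differed by 10 points or more, and 80% or more of them lay in that direction. Of 33 TERT windows with enough CpGs, 3 were higher in the Mdivi-1 library, where 0.58% of all windows of the table were, and 1 was lower, where 0.373% were. Among all windows at a mean level of 20% to 80%, which 31 of the TERT windows had, 1.27% were higher and 0.921% lower. Mean differences of 28 of the 33 windows were within 10 points. With windows of 2 kb, 0 passed.

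The widest difference was the one for which TERT had been chosen. It lay in an exon and an island shore, 15.6 to 15.7 kb from the start, and held 9 CpGs within 64 bp at positions 1279484 to 1279547. Their mean level was 77.3% in the Mdivi-1 and 44.98% in the DMSO library, a difference of 32.3 points with a counting error of 6.42 points. All 9 CpGs were higher in the Mdivi-1 library, 7 of them by at least 20 points. Coverage was the lowest of the exonic stretches of TERT, at 12.3 mean reads in the Mdivi-1 and 13.2 in the DMSO library.

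The steepest difference was at position 1279505, where 11 of 14 Mdivi-1 reads and 2 of 10 DMSO reads were methylated, 58.6 points apart with a 95% Newcombe interval of 18.0 to 78.5 points. At 1279525 the counts were 11 of 13 Mdivi-1 reads and 6 of 14 DMSO reads. At 1279531 all 11 Mdivi-1 reads and 10 of 16 DMSO reads were methylated. The intervals of these 3 CpGs lay above 0. At 1279484 the counts were 11 of 14 Mdivi-1 reads and 4 of 10 DMSO reads. The sites 1279517 and 1279522 each had 10 of 13 Mdivi-1 reads and 6 of 13 DMSO reads, and 1279527 had 8 of 12 Mdivi-1 reads and 6 of 15 DMSO reads. The difference was narrower at the end nearer the start, with 7 of 11 Mdivi-1 reads and 7 of 14 DMSO reads at 1279535, and 7 of 10 Mdivi-1 reads and 8 of 14 DMSO reads at 1279547. Levels ran from 63.6% to 100% in the Mdivi-1 and from 20% to 62.5% in the DMSO library.

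Because 64 bp fit on a single read, these CpGs may be close to 1 measurement. If the same reads covered all 9, the counts would be 9 of 12 Mdivi-1 reads and 6 of 13 DMSO reads, with an interval of the difference of -8.67 to 56.9 points that includes 0. Another 9 CpGs at 1279444 to 1279627 had too few reads in at least 1 library, and these averaged 60.5% in the Mdivi-1 and 45.2% in the DMSO library, 15.2 points apart. With at least 5 reads, 18 CpGs averaged 68.9% in the Mdivi-1 and 45.1% in the DMSO library, and 15 of them were higher. With at least 12 reads, 4 CpGs differed by 32.5 points, and with at least 20 reads no CpG of the window was left.

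A deeply read exonic stretch about 0.6 kb further into the gene did not share this difference. Its 15 CpGs at positions 1278756 to 1278901 had 217.5 mean reads in the Mdivi-1 and 163.5 in the DMSO library, the deepest exonic stretch of TERT. They averaged 59.1% in the Mdivi-1 and 59.5% in the DMSO library, a difference of -0.38 points with an error of 1.25 points. Single differences ran from -5.48 to 2.69 points. The profile was the same in shape, with 92.9% in the Mdivi-1 and 94.6% in the DMSO library at 1278897, and 46.1% in the Mdivi-1 and 48.3% in the DMSO library at 1278865. On the other side, 11 exonic CpGs at 1280287 to 1280395 averaged 44.2% in the Mdivi-1 and 51.7% in the DMSO library, with 10 of 11 lower by a mean of -7.46 points.

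**Figure D4:**
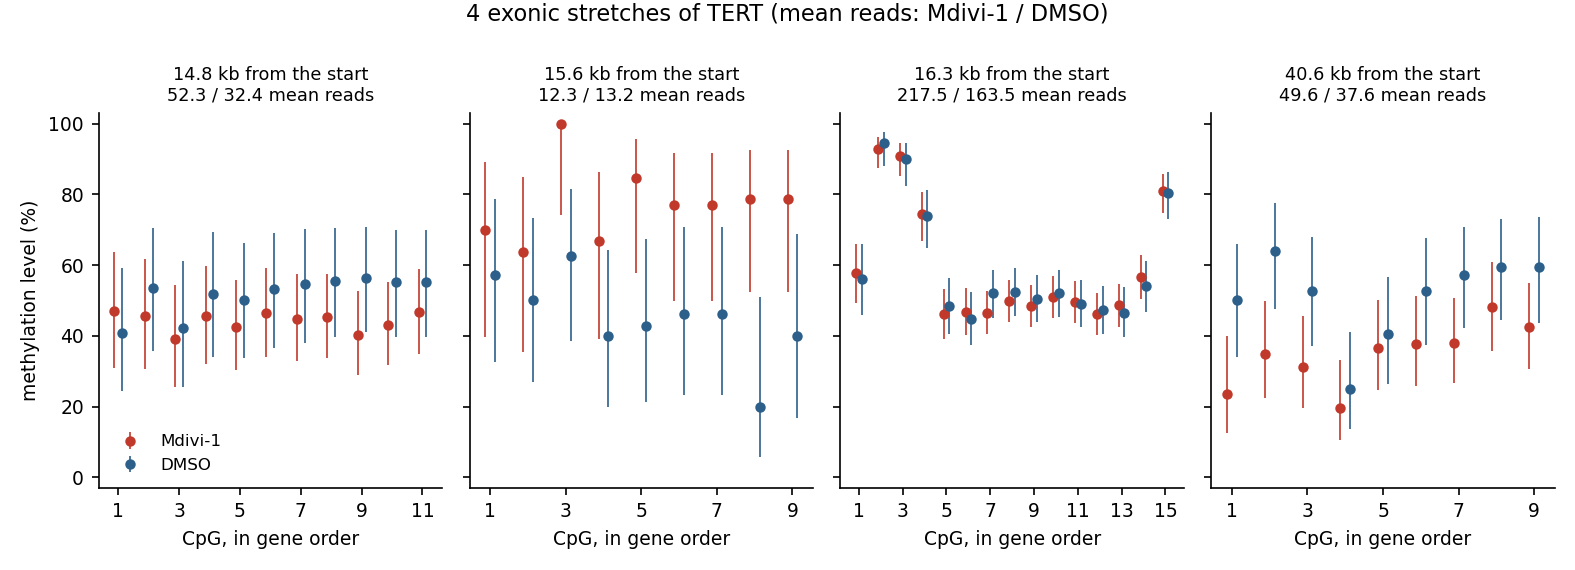
Methylation level (%) of single CpGs in 4 exonic stretches of TERT, in gene order, with Mdivi-1 and DMSO points side by side, bars giving 95% Wilson intervals for counting error and mean reads (Mdivi-1 / DMSO) above each panel. The 9-CpG window at 15.6 kb has wide intervals and higher Mdivi-1 levels, whereas the deeply read stretch at 16.3 kb has narrow intervals and levels within 5.48 points of each other.

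The other windows past the rule differed by much less. The errors given for them treat CpGs as independent, and if the same reads covered all CpGs of a window, the intervals of all 3 differences would include 0. A window at 1258002 to 1258995, mostly intronic, had 15 CpGs at 61.3% in the Mdivi-1 and 50.9% in the DMSO library. They differed by 10.4 points with an error of 2.82 points, and the interval for shared reads was -9.39 to 31.5 points. The window spans 994 bp, too wide for the same reads to cover all its CpGs, so that interval is an extreme case. Of its CpGs 14 were higher, at 51.5 mean reads in the Mdivi-1 and 33.8 in the DMSO library, with single differences of -1.61 to 20.2 points. An intronic window at 1289008 to 1289180 had 8 CpGs at 71.9% in the Mdivi-1 and 61.2% in the DMSO library, a difference of 10.7 points with a shared-read interval of -14.1 to 31.8 points, and all 8 were higher. Its CpGs formed a sharp pattern in both libraries. The 4 CpGs at 1289016, 1289031, 1289090 and 1289122 had 90.3% to 92.1% in the Mdivi-1 and 76.7% to 88.9% in the DMSO library, and the other 4 had 48.6% to 55.6% in the Mdivi-1 and 21.4% to 43.8% in the DMSO library.

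An exonic stretch of 9 CpGs at 1254511 to 1254614, near the end of the gene, ran the other way and was picked out after its values were seen. It averaged 34.7% in the Mdivi-1 and 51.2% in the DMSO library, a difference of -16.6 points with an error of 3.52 points. That error treats its CpGs as independent, although they lie within 104 bp and can share reads. All 9 CpGs were lower, at 49.6 mean reads in the Mdivi-1 and 37.6 in the DMSO library. The widest was at 1254598, with 34.9% of 43 Mdivi-1 reads and 63.9% of 36 DMSO reads. It did not pass the window rule, since its 1 kb window held 25 CpGs and differed by -3.85 points. In the first exonic stretch, 0.742 to 1.74 kb from the start, 62 CpGs averaged 75.6% in the Mdivi-1 and 79.4% in the DMSO library, with 28 higher and 31 lower and 23.1 mean reads in the Mdivi-1 against 17.0 in the DMSO library.

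Of the 5 CpGs of largest gain, 4 lay in the 9-CpG exonic window, at 1279505, 1279525, 1279484 and 1279531. The other was intronic, at 1289180, with 15 of 27 Mdivi-1 reads and 3 of 14 DMSO reads. The 5 of largest loss were scattered. The kept exonic CpG nearest the start, at 1294441, had 5 of 12 Mdivi-1 reads and 12 of 14 DMSO reads, -44.0 points with an interval of -68.6 to -7.25 points. An intronic CpG at 1261909 had 3 of 15 Mdivi-1 reads and 7 of 11 DMSO reads, and an exonic CpG at 1293719 had 2 of 10 Mdivi-1 reads and 7 of 12 DMSO reads. Upstream, the CpG at 1300231 had 0 of 16 Mdivi-1 reads, which allows a level of up to 18.8% (3 reads of 16, the limit that a count of 0 allows), and 4 of 10 DMSO reads. The CpG at 1298762 had 4 of 20 Mdivi-1 reads and 8 of 14 DMSO reads. Each of these losses rested on at most 20 reads per library, so the intervals of these CpGs were wide.

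The stretch upstream of the promoter was less methylated on average than the promoter or the gene body in both libraries. Its 36 CpGs, at positions 1298494 to 1301191, averaged 42.5% in the Mdivi-1 and 48.6% in the DMSO library, a difference of -6.08 points with a counting error of 2.11 points, and 24 were lower and 11 higher. With at least 20 reads in both libraries the difference was -3.06 points. Coverage was 27.9 mean reads in the Mdivi-1 and 24.2 in the DMSO library. The lower window past the rule lay here, with 5 CpGs at 1300231 to 1300302 at 59.6% in the Mdivi-1 and 69.97% in the DMSO library, a difference of -10.3 points, and 4 of 5 were lower at 19.6 mean reads in the Mdivi-1 and 11 in the DMSO library. That mean rested largely on the CpG at 1300231, the other 4 lying between -11.96 and 6.49 points. Its shared-read interval was -40.3 to 21.7 points, and it did not pass with the fractions as deposited, under which 4 TERT windows were higher and 0 lower.

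Promoters of 36 genes of telomerase, telomeres and TERT transcription were set beside it, from lists compiled with earlier results of these data known. None passed the rule of size used for windows, which 0.145% of all promoters passed as higher and 0.149% as lower. With 17 higher and 19 lower, the median difference was -0.05 points, beside 0.200 points over all promoters. In 26 of the 36 the level was under 20% in both libraries. The median of all promoters was also under 20%, at 19.1% in the Mdivi-1 and 18.9% in the DMSO library. None of the 36 exceeded the measured part of the TERT promoter in either library. TERC, the RNA subunit that carries the telomere template, had 50.6% in the Mdivi-1 and 42.2% in the DMSO library over 30 CpGs on chromosome 3, a difference of 8.40 points that was the widest of the lists. DKC1, the dyskerin subunit that stabilises TERC, had 32.0% in the Mdivi-1 and 35.0% in the DMSO library over 33 CpGs on the X chromosome. NHP2, another protein of the same particle, had 53.5% in the Mdivi-1 and 51.5% in the DMSO library over 38 CpGs.

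By role, the 11 genes of the telomerase complex and its assembly held 4 higher and 7 lower promoters with a median of -0.06 points. The 6 shelterin genes, whose proteins coat telomeres, held 4 higher and 2 lower with a median of 0.114 points, and the 5 genes of the CST complex and telomere replication held 4 higher and 1 lower with a median of 0.172 points. ATRX and DAXX, which are lost in tumours that lengthen telomeres without telomerase, were both lower, with a median of -0.53 points. The 12 regulators of TERT transcription held 5 higher and 7 lower with a median of -0.30 points. In both libraries 11 of these 12 promoters were under 20%, as was the median of all promoters.

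**Figure D5:**
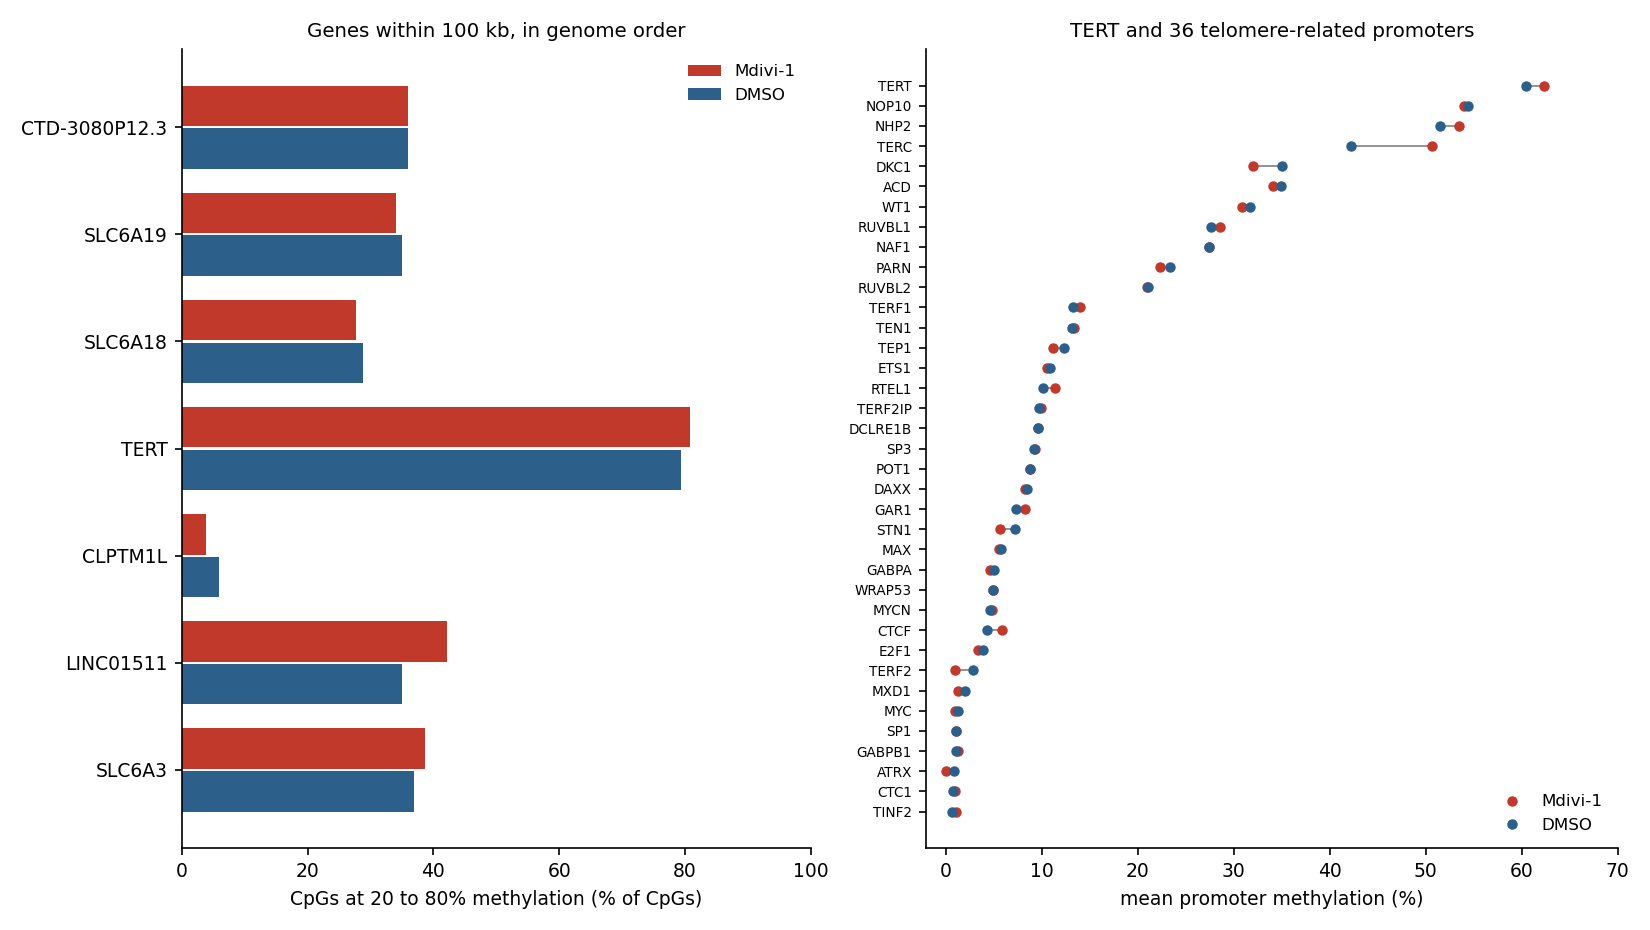
Left, share of CpGs (% of CpGs) between 20% and 80% methylation in TERT and its neighbours within 100 kb, in genome order, with the Mdivi-1 bar above the DMSO bar; right, mean promoter methylation (%) of TERT and 36 telomere-related genes, with 1 point per library. TERT stands above every neighbour in its share of intermediate CpGs, at 80.7% in the Mdivi-1 and 79.3% in the DMSO library. Its measured promoter CpGs, 326 to 973 bp upstream of the start, have the highest mean level of the genes shown.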

How the data were processed

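Genomic DNA of both libraries was made with a SureSelectXT Methyl-Seq kit, per the labels' protocols. The submitters' processing notes name BSMAP, with no version, and hg19; other steps are not given in the sources used here, and RNA-seq was not analysed here. The authors deposited 1 table of 2773807 positions with a methylated fraction and a coverage per library, read as an estimated count, their difference, and annotation. In the deposited table the DMSO fractions behave as ratios taken after coverage was multiplied by 1.23 (37 over 30, the median coverages), which is read from the values. Whole methylated reads were recovered by undoing this, with a tolerance of 1e-06, and 10798 positions (0.389%) without whole counts were left out, none of them in TERT.

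Levels are means over CpGs covered by 10 or more reads in each library. Counting errors are binomial, and intervals are 95% Wilson or, for differences, Newcombe intervals. No test was run. Members, lists, rules and alternatives were chosen with earlier results of these data known. Named were windows past the rule of size, the 5 CpGs of largest gain and of largest loss, promoter bins of 200 bp, TERC, DKC1, the 3 list promoters of largest absolute difference, and neighbours within 100 kb. Alternatives covered coverage, thresholds, windows, deposited fractions, pooled reads and centring. The promoter sequence came from RefSeq (GRCh38.p14). Scripts were tested on simulated data and used SciPy 1.17.1, Matplotlib 3.10.9, pandas 2.3.3 and NumPy 2.4.6 under Python 3.11.15.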

Additional observations from a re-analysis of the deposited data

How the results depend on the processing

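No paired analysis was possible because each group held 1 library. Of 68 values recomputed under alternatives, 51 stayed within the 95% counting interval or within 1.5 times the count, and 17 did not. CpGs at least 20 points higher numbered 27 of 597 with 10 reads, 12 of 412 with 20 reads and 5 of 278 with 30 reads. Those lower numbered 38, 9 and 5 of the same CpGs. At 10 points, 99 of the 597 were higher and 121 lower, and at 30 points 11 were higher and 7 lower. Shares over all CpGs of the table are not given for these alternatives, and nothing is read from the counts. Windows past the rule numbered 4 of 33, with 3 higher and 1 lower, or 4 higher and 0 lower with deposited fractions. They numbered 1 of 26 with at least 20 reads and 1 of 20 with at least 30 reads. At a difference of 5 points 7 of 33 passed, and at 15 points 1 of 33. With windows of 2 kb, 0 of 22 passed, with windows of 500 bp 6 of 40, and with the grid shifted by 500 bp 2 of 30. With at least 3 CpGs 6 of 38 passed, and with at least 10 CpGs 1 of 22. At 5 points, 1 of the 36 telomere promoters passed. Shares over all windows or promoters are not given for these alternatives, and nothing is read from these counts either. The exonic mean difference of 0.0447 points was -1.99 points without the 9-CpG window, chosen after seeing the data, and was also below 0 with a minimum of 5, 20 or 30 reads (-1.63, -0.997 and -1.60 points), with deposited fractions (-0.20), with pooled reads (-0.69) and after centring on all CpGs (-0.41). The cause was not tested. The promoter difference was 4.70 points over the 28 CpGs with 20 reads and 5.18 points over the 22 CpGs with 30 reads. The upstream difference ran from -7.43 to -3.06 points over its alternatives. Coverage of 10 to 16 reads limits the 9-CpG window.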
